A study of Mus musculus with 8 samples.

Results

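The mRNA of the HIRA complex and the other principal histone H3 chaperones was examined in mouse hepatocytes treated with irisin. The group was set by name and holds 10 genes, Hira, Ubn1, Ubn2, Cabin1, Asf1a, Asf1b, Chaf1a, Chaf1b, Daxx and Atrx. All array probes whose RefSeq accession maps to one of them were taken, which gave 15 of the 39429 probes that are not controls. The rule uses gene names and no measured value. HIRA is one of the upstream regulators that the study's pathway analysis listed for the irisin response, with activation predicted. That is a predicted state of the regulator and not a measured transcript, so the transcript values do not test it. The question here is whether irisin altered the transcripts of HIRA and its partner chaperones themselves.

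Histone chaperones escort newly made or recycled histones and hand them to DNA. HIRA, with the ubinuclein subunits UBN1 or UBN2 and with CABIN1, deposits the variant H3.3 independently of DNA replication, at active genes and promoters. ASF1A and ASF1B receive H3-H4 dimers and pass them on, ASF1A mainly to HIRA and both to chromatin assembly factor 1 (CAF-1). CAF-1, whose large subunits are encoded by Chaf1a and Chaf1b, assembles H3.1 and H3.2 behind the replication fork, where PCNA recruits it. DAXX and the remodeler ATRX place H3.3 at telomeres, pericentric repeats and other silent regions.

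AML12 is an established hepatocyte line derived from a mouse that carries a human TGF-α transgene, so control and treated cells share that background. Control cells (4 arrays) were compared with cells given 0.5 µg/ml irisin, the secreted part of FNDC5, for 24 h (4 arrays). The labels give both groups the same medium, with 10% fetal bovine serum, and do not say whether the replicates were separate cultures, so the p-values measure the spread between these samples, which may be technical. The control arrays all lie on one slide and the irisin arrays on another, and each slide had its own scan, so an effect of either cannot be told apart from that of irisin.

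The RNA came from all cells of a dish, so fewer cells of a type and less RNA per cell cannot be told apart. Of 9 hepatocyte markers, 9 were clearly above background on each of the 8 arrays. Of 3 leukocyte markers, Cd68 alone reached this. Of 3 endothelial markers, Pecam1 did, and Kdr did on its brighter probe only. The other Kdr probe and Cdh5 were above background on none, like the mesenchymal markers Des, Pdgfrb and Lrat. The summed signal of the endothelial markers, as log2 relative to the array's 75th percentile, was -0.52 to -0.36 on control and -1.29 to -0.79 on irisin arrays, and that of the leukocyte markers -1.91 to -1.43 and -1.82 to -1.58. Corresponding ranges were 9.11 to 9.25 and 8.84 to 9.10 for hepatocyte markers and -7.14 to -6.66 and -7.80 to -7.19 for mesenchymal markers. The brighter Kdr probe alone averaged -0.51 on control and -1.07 on irisin arrays, a log2 change of -0.56 (limma adjusted p = 0.0044), under 1.5-fold. Pecam1 was called down by the rule given below, with a log2 change of -0.61 (limma adjusted p = 0.0021). The part of these shifts in the results was not tested. The 75th percentile of the processed signal was 472 ± 70.1 (SD, n = 4) on control and 783 ± 71.6 (SD, n = 4) on irisin arrays, and between 59.5 and 64.1% of the probes on an array were clearly above background.

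None of the 10 genes was called different between irisin and control. For a call, the change had to reach 1.5-fold and the limma p-value, adjusted by Benjamini-Hochberg over all tested probes, had to be under 0.05. Testing required a probe to exceed background clearly on each of the 4 arrays of the control or the irisin group. This held for 13 of the 15 probes, and they covered all 10 genes. Of these 13 probes, 0 were called, 0 had an unadjusted limma p under 0.05, and the lowest unadjusted p was 0.0737, while 34.3% of all tested probes had an unadjusted p under 0.05. The methods' own test, an analysis of variance per probe, gave 0 calls and 0 unadjusted p-values under 0.05 as well. Across the array, 12.4% of the 24093 tested probes were called, 0.714% up and 11.7% down, and by 1 leading probe per gene 10.7% of 14312 genes. The leading probe is the one with the highest mean signal among the tested probes of a gene.

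Calls were unevenly spread over signal strength. With the tested probes ranked by mean signal into 5 equal classes, 40.5% of the dimmest class and 15.3% of class 2 were called, against 4.07%, 0.934% and 1.25% of classes 3, 4 and 5. The leading probes of Cabin1, Chaf1a, Ubn2, Daxx, Asf1b and Ubn1 lay in class 4, where calls were rarest, and that of Chaf1b in class 5, the brightest. Hira and Atrx lay in class 2 and Asf1a in class 1. The count of 0 among these 7 brighter genes is thus near the background of their classes, and Hira, Atrx and Asf1a are the members from classes in which calls were common. The shares and medians of all genes or probes given below are not matched for signal.

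Hira encodes the WD-repeat scaffold on which the complex is built. Its log2 signal relative to the array's 75th percentile was -2.59, -2.38, -2.69 and -2.79 on control arrays 1 to 4 and -2.29, -2.68, -2.92 and -2.60 on irisin arrays 1 to 4. The irisin values enclosed the control values on both sides. The means were -2.61 ± 0.172 (SD, n = 4) and -2.62 ± 0.259 (SD, n = 4), a log2 change of -0.012 (SE 0.137, 95% interval -0.32 to 0.29, limma adjusted p = 0.965). The exact two-sided permutation test over the 70 assignments of the arrays, whose smallest possible p is 0.0286, gave p = 0.914. A single probe (A_52_P98232) measures Hira on this array, and none of the 8 arrays had it near background.

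Ubn1 encodes a subunit that binds HIRA and recognizes H3.3. Its log2 signal was 2.43, 2.32, 2.20 and 2.43 on control arrays and 2.03, 2.37, 2.00 and 2.15 on irisin arrays. Irisin arrays 1, 3 and 4 lay below every control array and irisin array 2 among them. The log2 change was -0.21 (SE 0.104, 95% interval -0.44 to 0.024, adjusted p = 0.193, exact permutation p = 0.114), the lowest p of the group. Without irisin replicate 2 the change was -0.28 with a limma adjusted p of 0.0381, which is under 1.5-fold and so no call.

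Ubn2, the paralog of Ubn1, had the opposite arrangement. Its leading probe read 1.39, 1.40, 1.28 and 1.48 on control arrays and 1.70, 0.968, 1.83 and 1.41 on irisin arrays. Irisin arrays 1 and 3 lay above all controls and irisin array 2 below all of them, and the log2 change was 0.088 (SE 0.165, adjusted p = 0.765, exact permutation p = 0.686). A dimmer Ubn2 probe gave -0.17 (SE 0.174, adjusted p = 0.569), so the sign differed between the probes and each interval held 0.

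Cabin1 encodes the subunit known as calcineurin-binding protein 1. Its leading probe read 0.310, 0.246, 0.309 and 0.290 on control arrays and 0.0671, 0.499, 0.203 and 0.315 on irisin arrays. The controls were within a narrow band and the irisin arrays spread to both sides of it. The SD was 0.0301 (n = 4) in control and 0.183 (n = 4) in irisin cells, and the log2 change was -0.018 (SE 0.0986, adjusted p = 0.929, exact permutation p = 0.886). The other Cabin1 probe was well above background on 1 control and 3 irisin arrays and was not tested.

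Of the ASF1 pair, Asf1a is the paralog tied to HIRA. Its single probe read close to background. Its log2 signal was -6.18, -6.47, -6.65 and -6.15 on control and -6.04, -6.71, -5.59 and -6.14 on irisin arrays. Irisin array 3 was highest and irisin array 2 lowest of all 8. The change was 0.24 (SE 0.210, 95% interval -0.22 to 0.71, adjusted p = 0.469, exact permutation p = 0.400). The probe was well above background on 1 of 4 control and 4 of 4 irisin arrays, so it entered the test only through the irisin group.

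The Asf1a value differed between treatments of the signal. It was 0.77 (adjusted p = 0.0296) after quantile normalization and 0.75 (adjusted p = 0.0458) after cyclic loess, both called up, as were 2.78% and 2.88% of all tested probes, and it was -0.53 (adjusted p = 0.000211), under 1.5-fold, when 50 units were added to every signal. With spike-in scaling it was 0.82 (adjusted p = 0.0231) and with no scaling 0.98 (adjusted p = 0.00035), both called up. The median log2 change in the dimmest class of probes was -0.42 under the 75th-percentile scaling, and its part in these values was not tested. Without irisin replicate 3 the change was 0.067 (limma adjusted p = 0.873). No direction is therefore given for Asf1a.

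Asf1b, the paralog expressed mainly in proliferating cells, was far above background. Its log2 signal was 2.17, 2.26, 2.39 and 2.14 on control and 2.06, 2.44, 2.25 and 2.29 on irisin arrays. The range of the irisin arrays held all controls, and the log2 change was 0.017 (SE 0.101, 95% interval -0.21 to 0.24, adjusted p = 0.931, exact permutation p = 0.914).

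**Figure D1:**
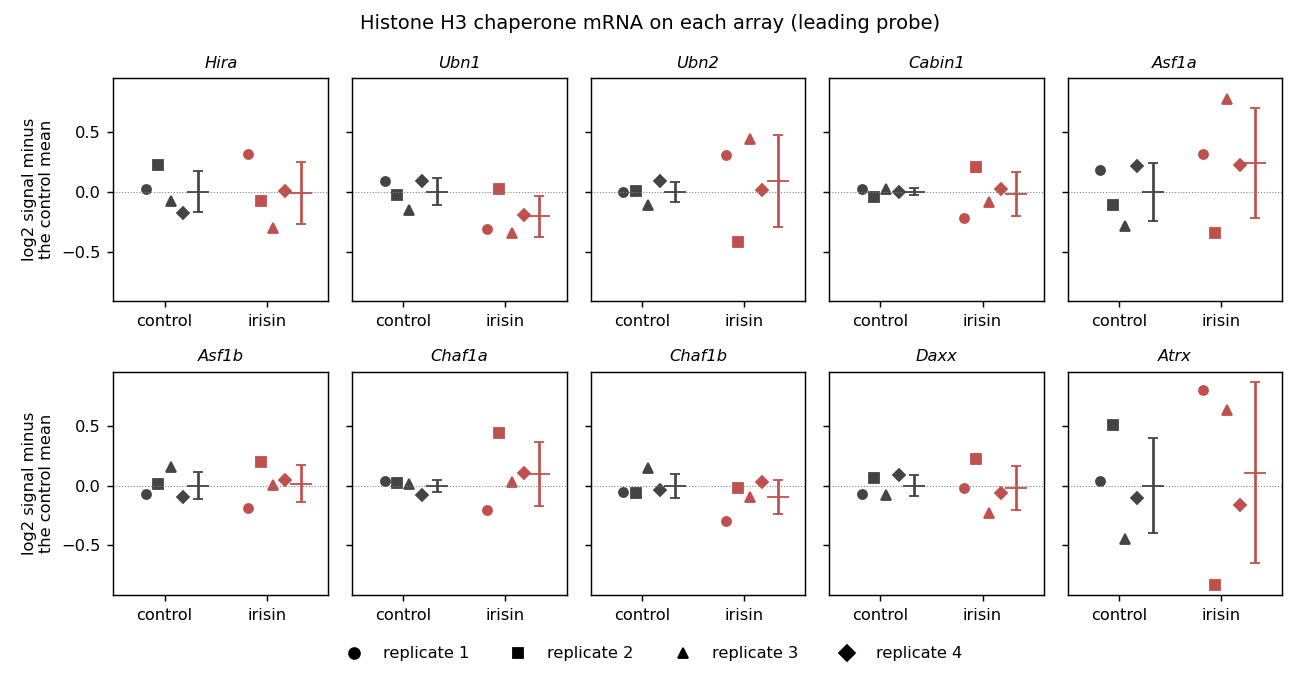
Log2 signal of the leading probe of each chaperone gene minus its control mean (y axis), on control arrays (grey) and irisin arrays (red), with a symbol for each replicate number and the mean ± SD of 4 arrays beside the points. The groups overlapped for all 10 genes, and the spread among irisin arrays exceeded that among control arrays for each of them.

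Chaf1a encodes the CAF-1 subunit that contacts PCNA. Its log2 signal was 0.969, 0.957, 0.943 and 0.857 on control arrays and 0.727, 1.38, 0.965 and 1.04 on irisin arrays. Irisin array 2 was the highest and irisin array 1 the lowest of all 8, with the controls between them. The log2 change was 0.095 (SE 0.125, 95% interval -0.18 to 0.37, adjusted p = 0.657, exact permutation p = 0.629).

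Chaf1b, which encodes the WD-repeat subunit of CAF-1, had a pair of probes, both bright. The leading probe read 4.30, 4.29, 4.50 and 4.31 on control and 4.05, 4.33, 4.25 and 4.38 on irisin arrays. Control array 3 was above all others and irisin array 1 below, and the log2 change was -0.094 (SE 0.0957, 95% interval -0.31 to 0.12, adjusted p = 0.552, exact permutation p = 0.429). The second Chaf1b probe gave 0.027 (SE 0.151, adjusted p = 0.929).

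Daxx encodes the chaperone that binds H3.3-H4 directly. Its log2 signal was 1.62, 1.75, 1.61 and 1.77 on control and 1.67, 1.91, 1.46 and 1.62 on irisin arrays, again with irisin values on both sides of the controls. The log2 change was -0.019 (SE 0.105, 95% interval -0.25 to 0.21, adjusted p = 0.927, exact permutation p = 0.943).

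Atrx, the SWI/SNF-type partner of DAXX, had the widest spread. Its leading probe read -3.27, -2.80, -3.76 and -3.41 on control and -2.51, -4.14, -2.67 and -3.47 on irisin arrays. Irisin arrays 1 and 3 were the highest of all 8 and irisin array 2 the lowest. The log2 change was 0.11 (SE 0.333, 95% interval -0.63 to 0.85, adjusted p = 0.862, exact permutation p = 0.800). A dimmer probe gave 0.18 (SE 0.304, adjusted p = 0.738), and -0.53 when 50 units were added to every signal. That probe was well above background on 3 control and 4 irisin arrays, so it entered the test only through the irisin group. The third Atrx probe was well above background on 1 control and 3 irisin arrays and was not tested.

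The 95% intervals state what changes these arrays could have missed under the 75th-percentile scaling. They do not cover the choice of scaling, an effect of slide or scan, or differences between cultures if the replicates were technical. They rest on a common spread for both groups, although the irisin arrays spread more. For 8 of the 10 genes the whole interval lay within 1.5-fold, a log2 change of 0.585, in either direction, compared with 75.2% of all tested genes. For Asf1a and Atrx it reached beyond 1.5-fold, upward for Asf1a and in both directions for Atrx. The count of genes with the whole interval within 1.5-fold was 0 with spike-in scaling, 0 with no scaling and 5 with normexp. The median log2 change of the 10 genes was 0.0025, with 5 above and 5 below 0 and a range from -0.21 to 0.24, and the median of all tested genes was -0.064. No gene of the group had control and irisin arrays that did not overlap, while 23.8% of all tested genes did.

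**Figure D2:**
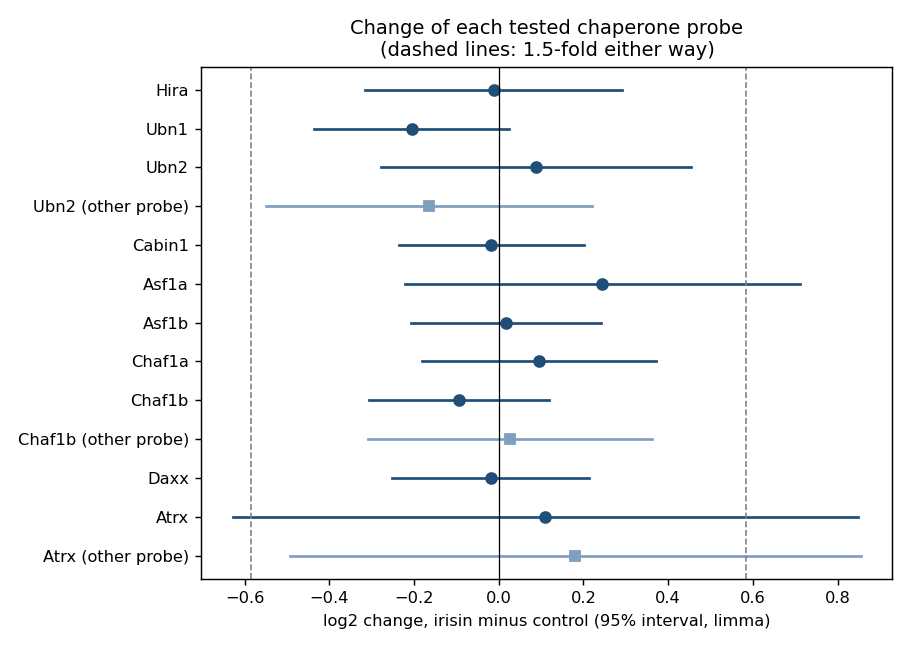
Log2 change, irisin minus control (x axis), with the 95% limma interval for the 13 tested probes of the 10 chaperone genes, circles for leading probes and squares for other probes. All intervals include 0, and those of the leading probes of Asf1a and Atrx pass the dashed lines at 1.5-fold, a log2 change of 0.585.

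The irisin arrays differed more among themselves than the control arrays did. The SD was larger in the irisin group for 10 of 10 chaperone genes, and for 66.2% of 14257 genes measured on every array. The median SD of the chaperone genes was 0.106 in control and 0.223 in irisin cells, beside 0.114 and 0.154 over all genes. Leaving out irisin replicate 2, the count was 9 of 10 beside 50.4% of all genes, and leaving out irisin replicate 1 it was 7 of 10 beside 60.9%. By probe, the irisin SD was larger for 11 of 13 tested probes beside 64.1% of all, the exceptions being the dimmer probe of Atrx and the second probe of Chaf1b.

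Irisin array 2 was often at an end of the irisin range. It held the highest or the lowest value of the irisin group for 8 of the 10 genes, a share near the 73.2% of all genes for which it did. It was the lowest for Asf1a, Ubn2 and Atrx and the highest for Ubn1, Cabin1, Asf1b, Chaf1a and Daxx. Without irisin replicate 2 the log2 change was 0.26 for Ubn2, 0.42 for Atrx and 0.44 for Asf1a, with limma adjusted p-values of 0.106, 0.259 and 0.0741, and again no chaperone probe was called. Without it, Asf1a and Ubn1 were the 2 of the 10 genes whose groups did not overlap, beside 37.5% of all genes so tested.

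Scaling between arrays set the level of all changes together. Without any scaling the median log2 change of all tested probes was 0.66 and 11 of the 13 chaperone probes were called up, beside 61.9% of all tested probes. With scaling to 8 spike-in probes the median was 0.50 and 6 of the 13 were called up, beside 32.4% of all. The medians of the 10 genes then were 0.74 and 0.58, in each case 0.083 above the median of all tested probes. Under the 75th-percentile scaling the median of all tested probes was -0.081 and the same distance was 0.083. These settings differ only by 1 value per array, so they leave that distance as it is. It was 0.030 with quantile normalization and 0.053 with cyclic loess, which differ by more than that. The distance sets leading probes against all tested probes and is not matched for signal. Under the 75th-percentile scaling the median log2 changes of signal classes 1 to 5 were -0.42, -0.097, 0.0021, -0.014 and -0.12. The distance is therefore not read as a trait of the chaperone genes.

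**Figure D3:**
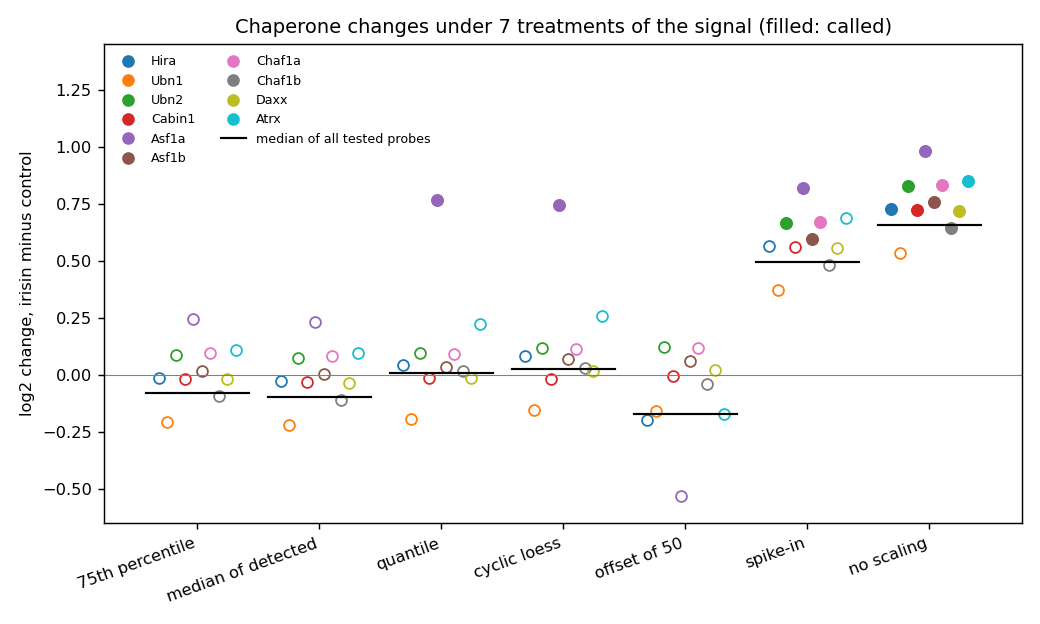
Log2 change, irisin minus control (y axis), of the leading probe of each chaperone gene under 7 treatments of the signal (x axis), with filled circles where the probe was called and a black line for the median of all tested probes. The genes and the black line lay higher together with spike-ins and without scaling, and Asf1a alone was called with quantile normalization and cyclic loess and was lowest, at -0.53, with an offset of 50.

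Other histone chaperones and their partners, a list of 30 genes beyond the 10, gave 1 gene called up and 0 called down, beside 0.531% up and 10.2% down among all genes. By unadjusted limma p under 0.05, 3 were higher and 2 were lower, beside 5.94% higher and 23.6% lower among all genes. The called gene was Anp32e, which encodes a chaperone that removes H2A.Z. Its leading probe read -1.03, -1.12, -1.42 and -1.20 on control and -0.594, -0.623, -0.320 and -0.552 on irisin arrays. All irisin arrays lay above all control arrays, and the log2 change was 0.67 (SE 0.108, limma adjusted p = 0.00108), but the second Anp32e probe gave 0.16 (SE 0.0926, adjusted p = 0.264). The change of the leading probe was no longer a call with 50 added to the signal. Its size puts it under a 2-fold threshold. Normexp background correction called 0 of all tested probes, so the missing call there says nothing about this probe.

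Hat1, which acetylates new histone H4, had probes that disagreed. The leading probe gave 0.40 (SE 0.0975, adjusted p = 0.0117), under 1.5-fold, and the dimmer probe -0.25 (SE 0.0782, adjusted p = 0.0400), and on each the groups did not overlap. Cdan1 and Supt6, a binder of ASF1 and an H3-H4 chaperone of elongating polymerase, each had a dim probe called down, with log2 changes of -0.98 and -0.64, while their leading probes gave 0.0021 and -0.037. The median log2 change of the 30 genes was -0.0095, with 14 above and 16 below 0.

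Rbbp4, the small CAF-1 subunit, gave 0.049 (SE 0.206, adjusted p = 0.903), and its close relative Rbbp7 0.025 (SE 0.0830, adjusted p = 0.874). The other probes gave 0.17 for Rbbp4 (SE 0.0911, adjusted p = 0.217) and 0.27 for Rbbp7 (SE 0.0944, adjusted p = 0.0611), and on the latter the groups did not overlap. Nasp, which keeps a soluble pool of H3-H4, gave -0.17 (SE 0.112, adjusted p = 0.341) and -0.29 on its other probe (SE 0.110, adjusted p = 0.0810). Hjurp, the chaperone of the centromeric variant CENP-A, gave 0.026 (SE 0.130, adjusted p = 0.921) on its leading probe and -0.33 (SE 0.106, adjusted p = 0.0434) on its dimmest, none of them a call.

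Among the genes of the cargo itself none was called. Of 15 histone H3 genes listed, 10 were on the array by accession and tested, and 0 were called, with a median log2 change of -0.043. By unadjusted limma p under 0.05, 1 was higher and 2 were lower, beside 5.94% and 23.6% of all tested genes, of which 10.7% were called. H3f3a, which encodes H3.3, gave -0.044 (SE 0.0774, adjusted p = 0.751) on its leading probe and 0.34 (SE 0.101, adjusted p = 0.0323), under 1.5-fold, on another. H3f3b, the other H3.3 gene, gave 0.15 (SE 0.158, adjusted p = 0.578) on its leading probe and -0.040 and 0.18 on the others. Histone genes are near-identical in sequence and probes of one may read another.

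Of 33 replication-linked genes, the setting in which CAF-1 acts, 0 were called beside 10.7% of all genes, and by unadjusted limma p under 0.05, 1 was higher and 4 were lower, beside 5.94% and 23.6%. The median log2 change was -0.056, with 9 above and 24 below 0, close to the -0.064 of all genes. The shares over all genes were not matched for signal. The control means of this list ranged from -5.49 for Ccne2 to 6.06 for Mcm6. Calls were made for 40.5% of the dimmest class of probes and 1.25% of the brightest, so the count of 0 is not read as stability. Pcna, the sliding clamp, gave -0.18 (SE 0.0851, adjusted p = 0.171), and Mcm2, a helicase subunit that also binds H3-H4, -0.10 (SE 0.0942, adjusted p = 0.513).

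Among the genes whose pattern over the 8 arrays was most like that of Hira were Lpcat1 and Kif2c. After subtraction of each probe's own mean, the root-mean-square difference from Hira was 0.0590 for Lpcat1 and 0.0671 for Kif2c on the log2 scale, and its median over the 13708 genes compared was 0.260. Both genes were picked for the smallest differences among those compared, so values far under the median follow from the choice. The values of Hira varied about their own mean by a root mean square of 0.190. Neither gene was called by the limma test, with log2 changes of -0.10 for Lpcat1 and -0.0050 for Kif2c (adjusted p = 0.650 and 0.986).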

How the data were processed

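Cy3-labeled RNA of 8 samples was hybridized by the authors to Agilent one-color arrays and scanned, and the scans were processed with Feature Extraction 12.0.3.1. The deposited values are signal intensity on a linear scale, after background subtraction by that software and with no normalization between arrays. The deposited value table, which holds the average of that signal over the spots of a probe, was used as an alternative.

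Marked outlier spots, at most 0.463% of an array, were left out and the spots of a probe averaged. The log2 of the deposited processed signal was taken relative to the array's 75th percentile. Probes were named by accession through the RefSeq table of GRCm38.p6, which matched 28663 of 39429 probes (72.7%). The files' coordinates are on mm9 and are not printed. The 24093 probes that passed the detection filter (flagged as well above background on each of the 4 arrays of 1 group or both) were fitted in R 4.3.3 with the lmFit and eBayes functions of limma 3.58.1, and p-values were adjusted over all of them by Benjamini-Hochberg. The procedure was run on simulated data with equal spread in both groups and no effect of slide. These arrays differ from that in spread, so the simulation does not test how well the fit suits them. The number of arrays limits the precision. Tables and plots were made with Python 3.11.15, pandas 2.3.3 and matplotlib 3.10.9.

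The members and lists were chosen with earlier results of these data known. Named were all probes of the 10 genes, the called genes of the other lists, 9 further genes (H3f3a, H3f3b, Rbbp4, Rbbp7, Nasp, Hjurp, Hat1, Pcna and Mcm2) and the 3 genes most like Hira in root-mean-square difference, of which 1 is not reported here. Cdan1, Supt6 and the genes named beside the alternatives were added after their values were seen. The alternatives were normexp, other scalings, filters, variance models, tests and thresholds, the mean over a gene's probes, a replicate block and each array left out. Adding 50 to the signal was chosen after seeing the data.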

Additional observations from a re-analysis of the deposited data

Results flagged for a closer look

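In 80 groups of 4 arrays, those of the tested chaperone probes and of the other named genes, 2 held an array that stood apart from the rest by Dixon's criterion, and chance gives about 1 in 20. Chaf1b was highest on control array 3 at 4.50, with the other controls between 4.29 and 4.31 and the irisin arrays between 4.05 and 4.38, and its second probe showed no array apart. Pcna was highest on control array 1 at 5.70, with the other controls between 5.59 and 5.60 (log2 signal relative to the array's 75th percentile).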

How the results depend on the processing

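None of the chaperone probes was called under the main setting, and none was called with 50 added, normexp, no filter or a filter on all 8 arrays, the deposited value table, marked spots kept, the median of detected probes, trend and robust eBayes, a replicate block, the methods' test, other thresholds or any array left out. Normexp called 0 of all tested probes and a 2-fold threshold can only remove calls. Neither could have added a chaperone call, so their counts say nothing about these probes. The block gave 173 probes up and 2832 down, and it changed no other call. Same-numbered arrays correlated in their deviations by 0.13, -0.38, -0.14 and 0.18. Only the arrays numbered 4 were each other's best match, and whether the numbers pair arrays cannot be told from these values.

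Quantile normalization and cyclic loess called 1 chaperone probe (Asf1a, 0.77 and 0.75), spike-in scaling 6 and no scaling 11, all up. Asf1a reversed to -0.53 with 50 added. Over all probes, calls up and down were 172 and 2816, against 0 and 0 with normexp, 52 up with 50 added, 670 and 1021 (39.6% up) with quantile normalization, 693 and 924 (42.9% up) with loess, 7804 and 362 (95.6% up) with spike-ins, 14920 and 162 (98.9% up) with no scaling, 23 and 778 at 2-fold, 713 and 5197 by adjusted p alone, 108 up by the methods' test and 12750 down with no filter. The main split is 5.76% up. Normexp fitted a background of -306 and -395 on irisin arrays 2 and 4 but -10.7 to -8.06 on the others.

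The median of the 10 genes was -0.078 with normexp, 0.040 with quantile normalization, 0.077 with loess, 0.58 with spike-ins and 0.74 with no scaling. Intervals within 1.5-fold numbered 5 with normexp and 0 with spike-ins and with no scaling. Genes whose groups did not overlap numbered 2 with normexp, 1 with 50 added and with quantile normalization, 5 with spike-ins and 7 with no scaling. Called genes among other chaperones (1 in the main setting) numbered 0 with normexp, 50 added and 2-fold, 2 with quantile normalization and loess, where Chd2 joined Anp32e, 5 by adjusted p alone, 12 with spike-ins and 25 with no scaling. Histone H3 genes gave 4 and 8 calls with spike-ins and no scaling. Replication-linked genes gave 1 call with 50 added and with the median of detected probes (Ccne2), 1 by adjusted p alone (Cdc45), 7 with spike-ins and 26 with no scaling.

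Changes whose sign reversed were, with normexp, Hira 0.34, Asf1b -0.15, Ubn2 -0.070 and Chaf1a -0.074. With 50 added they were Daxx 0.020 and Atrx -0.17. With quantile normalization they were Hira 0.045 and Chaf1b 0.015, and with loess Hira 0.083, Daxx 0.016 and Chaf1b 0.032. With spike-ins they were Hira 0.56, Cabin1 0.56, Ubn1 0.37, Daxx 0.56 and Chaf1b 0.48, and with no scaling Hira 0.73, Cabin1 0.72, Ubn1 0.53, Daxx 0.72 and Chaf1b 0.64. Of these, Hira, Cabin1, Daxx and Chaf1b were called with no scaling and the rest were not. The mean over its probes gave Ubn2 -0.038. The causes were not tested.

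With each array left out in turn, log2 changes ranged from -0.12 to 0.085 for Hira, 0.067 to 0.44 for Asf1a, -0.14 (without irisin replicate 4) to -0.027 (without irisin replicate 1) for Chaf1b, -0.28 to -0.16 for Ubn1, -0.043 to 0.084 for Asf1b, -0.12 to 0.42 for Atrx, -0.094 to 0.050 for Cabin1, -0.021 to 0.20 for Chaf1a, -0.10 to 0.050 for Daxx and -0.030 to 0.26 for Ubn2. The median of the 10 genes ranged from -0.032 to 0.043 and genes without overlap from 0 to 2. Calls ranged from 103 (without irisin replicate 3) to 353 (without irisin replicate 2) up, from 2664 to 3088 down, from 1 to 2 among other chaperones, and from 0 to 1 among H3 genes (without irisin replicate 1) and replication-linked genes (without control replicate 3 or irisin replicate 3).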
